A study of Rattus norvegicus with 59 samples.

Results

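The 10 genes described here encode Wnt receptors and the core of the β-catenin pathway. They are the frizzled receptors Fzd1, Fzd2 and Fzd3, the co-receptors Lrp5 and Lrp6, β-catenin (Ctnnb1), the kinase Gsk3b and the scaffolds Apc and Axin1 of the β-catenin destruction complex, and the transcription factor Tcf7l2. Members were chosen by gene symbol, and each had 1 row among the 18331 transcripts of the deposited table. All 10 passed the filter on low values, which kept the 10660 transcripts averaging 1 FPKM or more over the libraries. FPKM are fragment numbers scaled to transcript length and to the library total, so levels of different genes are compared here per length.

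RNA came from INS-1E cells, a clonal line from a rat insulinoma whose insulin secretion responds to glucose, in 59 libraries. In HG + drugs (n = 19), cells stayed in 20 mM glucose for 72 h, and for the last 48 h the medium also held exendin-4 at 50 nM together with metformin and sodium salicylate, each at 250 μM. Exendin-4 activates the GLP-1 receptor, metformin is a glucose-lowering drug and sodium salicylate is an anti-inflammatory agent, and because the agents were given together their effects cannot be told apart. HG (n = 20) was 20 mM glucose for 72 h without drugs, and NG (n = 20) was 11.1 mM glucose for 72 h, a usual concentration for culture of this line.

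In the absence of Wnt ligands, AXIN1, APC and the kinase GSK3β hold β-catenin in a complex that marks it for degradation. Binding of a Wnt ligand to a frizzled receptor and to LRP5 or LRP6 stops this, and β-catenin then enters the nucleus, where it binds TCF factors such as TCF7L2 and activates transcription. The pathway is known for roles in β-cell growth, and variants near the human TCF7L2 gene are associated with type 2 diabetes. Most of this control acts on protein, which RNA levels do not measure.

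Depth was read from the steps between low FPKM values. HG + drugs libraries had 7.63 to 9.72 M reads with a median of 8.85 M, HG libraries 7.03 to 10.2 M with a median of 8.70 M, and NG libraries 6.92 to 9.47 M with a median of 8.57 M. All 7 β-cell markers found in the table, of 8 listed, had a mean of at least 1 FPKM, and their summed level was 58200 to 102000 FPKM in HG + drugs, 43000 to 83800 FPKM in HG and 74200 to 118000 FPKM in NG. Of 4 markers of other islet cells, Gcg, the glucagon gene of α-cells, was expressed, and the summed level of the 4 was 430 to 1840 FPKM in HG + drugs, 432 to 1740 FPKM in HG and 378 to 1710 FPKM in NG. The summed levels of fibroblast, endothelial, leukocyte and exocrine markers were at most 2.45, 0.134, 2.12 and 0.218 FPKM in any library. The part of these markers in the results below was not tested. In bulk RNA, fewer cells expressing a gene and less RNA per cell cannot be told apart.

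The HG and HG + drugs libraries of replicate number 13 stood apart for Fzd1 and Ctnnb1. For both Fzd1 and Ctnnb1, the HG library of this number was the lowest in HG. For both genes, the HG + drugs library of this number was the highest in HG + drugs. Fold changes and counts between HG + drugs and HG are given for these genes with and without the libraries of this number. Leaving out the lowest HG value and the highest HG + drugs value can only widen the gap between these groups. The values without this number therefore give the fall with drugs no added support.

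Among the members, Fzd1 changed the most. It rose with HG compared to NG, fell with drugs compared to HG and, with drugs, stayed above NG. Ctnnb1 also rose with HG and fell with drugs, by a few percent, and with drugs it did not differ from NG past the threshold, while the other receptors, the destruction complex and Tcf7l2 changed little or did not pass the test. The promoters of Fzd1 and Ctnnb1 are shown because these were the members that rose with HG and fell with drugs. Each sequence is the 250 bases before the gene's start in RefSeq (build GRCr8, + strand), 5′ to 3′, with matches to any of 5 short motifs in capitals. Fzd1 lies at chr4:30264824-30265073 and Ctnnb1 at chr8:129533887-129534136.
Fzd1: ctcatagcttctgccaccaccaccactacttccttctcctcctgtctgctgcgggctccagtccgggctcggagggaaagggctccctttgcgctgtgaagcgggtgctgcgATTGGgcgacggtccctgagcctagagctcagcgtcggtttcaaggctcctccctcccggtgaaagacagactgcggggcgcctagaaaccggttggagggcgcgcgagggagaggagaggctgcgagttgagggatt
Ctnnb1: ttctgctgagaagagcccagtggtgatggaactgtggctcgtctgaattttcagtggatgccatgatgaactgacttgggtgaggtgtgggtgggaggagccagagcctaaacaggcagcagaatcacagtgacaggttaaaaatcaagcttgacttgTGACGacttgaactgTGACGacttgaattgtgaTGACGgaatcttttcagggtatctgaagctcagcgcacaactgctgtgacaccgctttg

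The motifs, searched on both strands, were the E-box CACGTG, the cyclic AMP response element core TGACG, the TCF site CTTTGAT, the CCAAT box CCAAT and the GC box GGGCGG. Fzd1 held 1 CCAAT box, read as ATTGG on the printed strand, and none of the others. Ctnnb1 held 3 copies of TGACG and none of the others. Of 33469 promoters of this length, 34.0% held a CCAAT box and 18.2% held at least 1 copy of TGACG. The E-box was held by 5.59%, the TCF site by 3.15% and the GC box by 30.5%. The share with 3 copies of TGACG was not counted. A match is a run of letters, and binding was not measured. Promoters were found for 5 of the 10 members, and those of Gsk3b, Apc and Tcf7l2 are not printed. None of these 3 genes passed in any comparison, yet Apc also held 1 CCAAT box and Tcf7l2 held 1 TGACG and 6 GC boxes. Gsk3b held 1 E-box.

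In every group the order of mean levels was Ctnnb1, Gsk3b, Axin1, Apc, Lrp6, Lrp5 and Fzd2, with Tcf7l2 lowest. In HG, Fzd1 stood above Fzd3, and in HG + drugs and NG it stood below. Ctnnb1 averaged 97.2 ± 3.36 FPKM in HG + drugs (SD, n = 19), against 103.1 ± 2.96 FPKM in HG and 98.4 ± 2.64 FPKM in NG (SD, n = 20 each). Tcf7l2 averaged 1.33 ± 0.311 FPKM in HG + drugs, 1.32 ± 0.236 FPKM in HG and 1.35 ± 0.302 FPKM in NG (SD, same n). For each pair of neighbors from Ctnnb1 down to Fzd2, the higher gene was above the lower one in every library. Only the frizzled genes crossed. Fzd3 was above Fzd1 in 14 of 19 HG + drugs libraries, Fzd2 was above Fzd1 in 17 of 20 HG libraries and Fzd1 was above Fzd3 in 18 of 20 HG libraries.

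Fzd1, a receptor for several Wnt ligands, had 3.10 FPKM in the lowest HG library, a median of 5.17 FPKM and 6.40 FPKM in the highest, against 1.38, 1.91 and 2.54 FPKM in NG. The groups did not overlap, and HG was higher than NG in 20 of 20 replicate numbers. Without overlap in this direction stood 1.26% of the transcripts tested. The ratio of means was 2.57, and the log2 fold change of FPKM + 1, a scale that understates changes of low transcripts, was 1.02 (SE 0.06, adjusted p = 1.1e-23 from limma with Benjamini-Hochberg adjustment over all transcripts tested, as for all adjusted p below unless another test is named). On a scale with a pseudocount of 0.1 FPKM, the log2 fold change was 1.31, and without the HG library of number 13 (and that of HG + drugs) it was 1.05 on the first scale. Of the 10660 transcripts tested, 46 had a larger rise.

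In HG + drugs, Fzd1 had 2.47 FPKM in the lowest library, a median of 3.20 FPKM and 4.33 FPKM in the highest. These libraries overlapped with HG, but 7 of 19 were below the lowest HG library, which was number 13. Without the libraries of that number, 15 of 18 were. HG + drugs was lower than HG in 18 of 19 replicate numbers, the exception being number 13. The ratio of means was 0.648 and the log2 fold change was -0.50 (SE 0.06, adjusted p = 1.3e-08). Leaving out both libraries of number 13 with 20 mM glucose, the log2 fold change was -0.55. A larger fall was measured for 47 transcripts. Compared to NG, Fzd1 in HG + drugs was still higher in 19 of 19 replicate numbers, and the log2 fold change was 0.52 (SE 0.06, adjusted p = 3.5e-11), while 18 of 19 libraries were above the highest NG library. At the depth given above, Fzd1 rested on a median of 118 reads in HG + drugs, 186 reads in HG and 71 reads in NG.

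**Figure D1:**
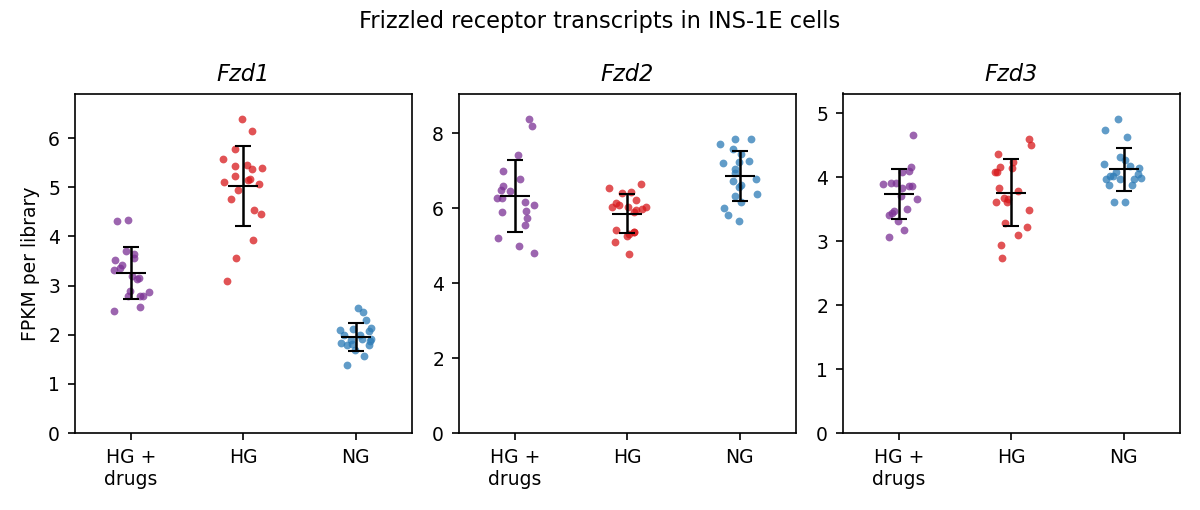
FPKM of Fzd1, Fzd2 and Fzd3 in each library (points) of HG + drugs (n = 19), HG (n = 20) and NG (n = 20), with the mean and SD in black. For Fzd1 the HG libraries lie between 3.10 and 6.40 FPKM, all above the NG libraries, and the mean of HG + drugs lies between, while for Fzd2 and Fzd3 the 3 groups overlap.

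Fzd2 and Fzd3, the other frizzled receptors among the members, moved the other way with HG, and by less. Fzd2 had 4.77, 6.00 and 6.64 FPKM (lowest, median and highest library) in HG, against 5.66, 6.85 and 7.85 FPKM in NG. The groups overlapped, with 7 HG libraries below the lowest NG library. The log2 fold change was -0.20 (SE 0.05, adjusted p = 3.2e-04), and HG was lower in 19 of 20 replicate numbers. Fzd2 in HG + drugs ranged from 4.82 to 8.39 FPKM with a median of 6.26 FPKM, and its log2 fold changes of 0.09 against HG (adjusted p = 0.24) and -0.11 against NG (adjusted p = 0.074) did not pass.

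Fzd3 was near the limit of the test. It had 2.73, 3.73 and 4.60 FPKM in HG (lowest, median and highest), against 3.61, 4.04 and 4.92 FPKM in NG, so the groups overlapped widely. The log2 fold change was -0.11 (SE 0.04, adjusted p = 0.025), lower in 13 of 20 replicate numbers. In HG + drugs it ranged from 3.07 to 4.66 FPKM (median 3.84), a log2 fold change of -0.00 against HG (95% interval -0.08 to 0.08, adjusted p = 0.99) and of -0.11 against NG (SE 0.04, adjusted p = 0.035, lower in 16 of 19). Both calls of Fzd3 were lost after quantile normalization (adjusted p = 0.12 for HG against NG and 0.070 for HG + drugs against NG). The spread expected from counting reads was 10.6% to 11.1% of the mean in the 3 groups, and the measured spread was 8.05% to 13.9%.

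Ratios within a library do not depend on how the library was scaled, apart from the pseudocount. In 12 comparisons of 4 ratios, groups were compared by two-sided permutation tests with 100000 resamples on log2 ratios of FPKM + 1. Fzd1 relative to Fzd2 averaged -0.19 ± 0.18 in HG and -1.41 ± 0.17 in NG (SD, n = 20 each), a difference of 1.22 (SE 0.06). In HG + drugs the ratio averaged -0.78 ± 0.26 (SD, n = 19), a difference of -0.59 (SE 0.07) against HG and of 0.63 (SE 0.07) against NG. Each of these differences had a permutation p of 2e-05, the smallest that the resamples can give, and an adjusted p of 4e-05 over the 12 comparisons.

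The Fzd1 to Fzd3 ratio gave differences of 1.13 (SE 0.07) for HG against NG, -0.50 (SE 0.08) for HG + drugs against HG and 0.64 (SE 0.06) for HG + drugs against NG, with the same permutation p and adjusted p. Fzd1 was above Fzd3 in 5 of 19 HG + drugs libraries, 18 of 20 HG libraries and 0 of 20 NG libraries. For Fzd2 relative to Fzd3 the differences were -0.08 (95% interval -0.19 to 0.02, permutation test, adjusted p = 0.17), 0.09 (-0.04 to 0.22, adjusted p = 0.21) and 0.01 (-0.11 to 0.12, adjusted p = 0.91) in the same order, so a difference between these 2 receptors was not detected.

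**Figure D2:**
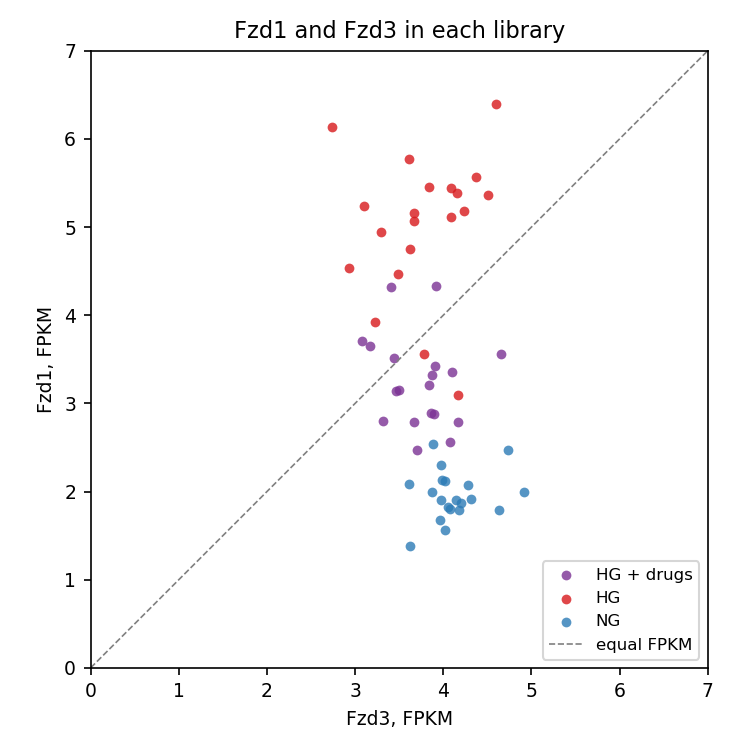
Fzd1 against Fzd3 in each library, both in FPKM, with a dashed line at equal levels and the groups in color. HG libraries lie above the line in 18 of 20 cases, HG + drugs libraries in 5 of 19 and NG libraries in 0 of 20.

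Over the 8 frizzled genes in the table, Fzd1 made up 12.0% ± 1.87 of the summed FPKM in HG + drugs (SD, n = 19), 18.7% ± 2.35 in HG and 7.05% ± 0.945 in NG (SD, n = 20 each). The sum itself averaged 27.3 ± 2.00 FPKM in HG + drugs, 26.9 ± 2.24 FPKM in HG and 27.8 ± 2.02 FPKM in NG. The share of Fzd6 was 28.1% ± 4.19 in HG + drugs, 23.7% ± 4.09 in HG and 27.3% ± 4.28 in NG, and it had the highest mean share in each group. These shares are a description and were not tested.

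Without a replicate block, neither co-receptor passed the limma test in any comparison. Lrp5, which with Lrp6 passes the signal of a bound Wnt ligand into the cell, ranged from 8.44 to 11.5 FPKM in HG + drugs (median 9.91), 8.09 to 11.6 FPKM in HG (median 9.91) and 7.48 to 11.3 FPKM in NG (median 9.68). Its log2 fold changes were 0.02 for HG against NG (95% interval -0.06 to 0.10, adjusted p = 0.71) and 0.00 for HG + drugs against HG (-0.08 to 0.08, adjusted p = 1.0). Lrp6 ranged from 11.6 to 15.0 FPKM in HG + drugs (median 14.1), 10.4 to 14.8 FPKM in HG (median 14.0) and 11.8 to 15.8 FPKM in NG (median 14.6). The groups overlapped for both genes. Lrp6 had a log2 fold change of -0.07 for HG against NG (95% interval -0.13 to -0.01, adjusted p = 0.070, lower in 18 of 20), which did not pass, and of 0.01 for HG + drugs against HG (-0.06 to 0.07, adjusted p = 0.95). With a replicate block in the limma fit, the fall of Lrp6 with HG passed (adjusted p = 0.0057). The Lrp5 to Lrp6 ratio differed by 0.09 in HG against NG (permutation test, p = 0.038, adjusted p = 0.057 over the 12 comparisons), by -0.01 in HG + drugs against HG (adjusted p = 0.91) and by 0.09 in HG + drugs against NG (p = 0.021, adjusted p = 0.036), so the last of these passed.

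Ctnnb1, which encodes β-catenin, the carrier of the signal to the nucleus and also a part of cell junctions, had the highest level of the members. It had 95.3, 104 and 109 FPKM (lowest, median and highest) in HG, against 91.8, 98.9 and 103 FPKM in NG. The groups overlapped, with 13 of 20 HG libraries above the highest NG library. The rise was 4.86% of the NG mean, or 0.07 in log2 fold change (SE 0.02, adjusted p = 3.7e-04, higher in 18 of 20).

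In HG + drugs, Ctnnb1 had 92.1, 97.6 and 105 FPKM (lowest, median and highest). Of these libraries, 7 of 19 were below the lowest HG library, which was number 13, and 16 of 18 were without the libraries of that number. The log2 fold change against HG was -0.09 (SE 0.02, adjusted p = 1.6e-04), lower in 18 of 19 replicate numbers with number 13 as the exception, and -0.10 without that number. Against NG it was -0.02 (95% interval -0.05 to 0.01, adjusted p = 0.45). Reads were many, with a median of 1820 in HG + drugs, 1911 in HG and 1782 in NG.

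Of the destruction complex, only Axin1, the scaffold that limits its assembly, passed the test in any comparison. Axin1 had 24.8, 27.3 and 29.5 FPKM (lowest, median and highest) in HG, against 26.2, 28.8 and 32.5 FPKM in NG. The groups overlapped, and 5 HG libraries were below the lowest NG library. The log2 fold change was -0.10 (SE 0.03, adjusted p = 0.0018, lower in 17 of 20). In HG + drugs it ranged from 24.8 to 31.7 FPKM (median 28.1), with log2 fold changes of 0.04 against HG (95% interval -0.02 to 0.09, adjusted p = 0.46) and -0.06 against NG (-0.12 to -0.01, adjusted p = 0.074).

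Gsk3b, the kinase that phosphorylates β-catenin, ranged from 38.7 to 50.0 FPKM in HG + drugs (median 42.5), 35.7 to 47.4 FPKM in HG (median 43.1) and 37.3 to 47.8 FPKM in NG (median 42.1). Its log2 fold change was 0.02 for HG against NG (95% interval -0.05 to 0.08, adjusted p = 0.73) and -0.01 for HG + drugs against HG (-0.07 to 0.05, adjusted p = 0.93). Apc, a large scaffold and tumor suppressor, ranged from 15.9 to 20.5 FPKM in HG + drugs (median 17.6), 15.6 to 20.0 FPKM in HG (median 17.9) and 15.1 to 20.9 FPKM in NG (median 17.9). The intervals of its log2 fold changes were -0.08 to 0.04 for HG against NG and -0.07 to 0.05 for HG + drugs against HG. For both genes the groups overlapped throughout, and none of their comparisons passed.

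Tcf7l2, the nuclear partner of β-catenin, had the lowest level and the widest relative spread. Its libraries ranged from 0.808 to 1.82 FPKM in HG + drugs, 0.949 to 1.82 FPKM in HG and 0.812 to 1.92 FPKM in NG, at medians of 31, 30 and 34 reads. The log2 fold changes were -0.01 for HG against NG (95% interval -0.12 to 0.10, adjusted p = 0.92), -0.00 for HG + drugs against HG (-0.12 to 0.11, adjusted p = 0.98) and -0.01 for HG + drugs against NG (-0.13 to 0.10, adjusted p = 0.90). The measured spread was 23.5% of the mean in HG + drugs, 17.8% in HG and 22.4% in NG, and counting reads alone gives about 18.0% in each. Only 1 transcript of this gene is in the table, and other splice forms were not analysed here.

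**Figure D3:**
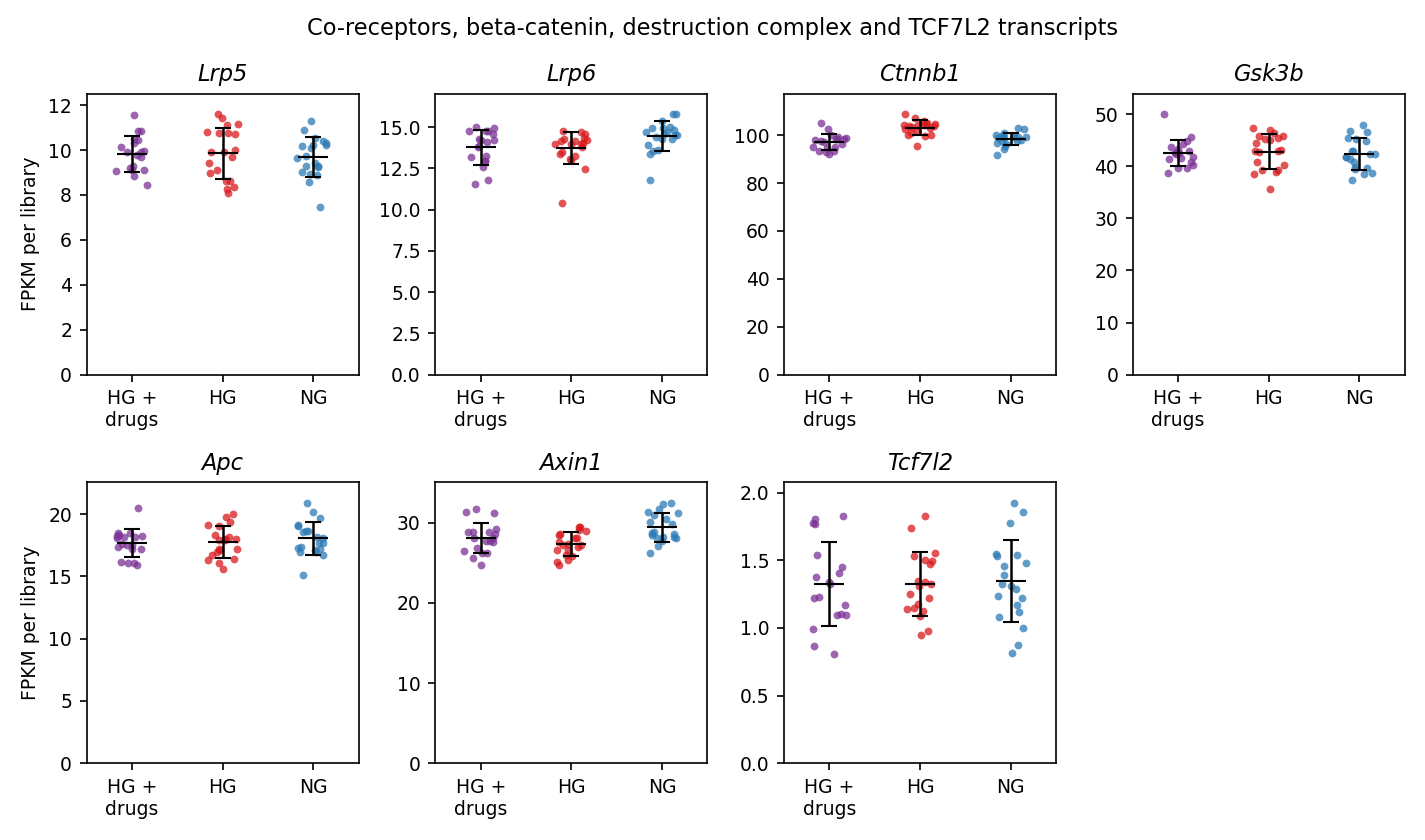
FPKM of the 2 co-receptors, β-catenin, the 3 destruction complex genes and Tcf7l2 in each library (points), with the mean and SD in black, in HG + drugs (n = 19), HG (n = 20) and NG (n = 20). All 3 groups overlap for each gene, and Ctnnb1 stands highest in HG, at a mean of 103.1 FPKM.

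For HG against NG without a replicate block, 2 of the 10 members were higher (Fzd1 and Ctnnb1), 3 were lower (Fzd2, Fzd3 and Axin1) and 5 did not pass. Of all transcripts tested, 40.1% passed in this comparison, 18.2% higher and 22.0% lower, so the count of members was close to the background. For HG + drugs against HG, 0 were higher and 2 were lower (Fzd1 and Ctnnb1), where 8.66% of all transcripts passed, 4.17% higher and 4.48% lower. For HG + drugs against NG, 1 was higher (Fzd1) and 1 was lower (Fzd3), where 27.3% passed, 12.7% higher and 14.6% lower. The median log2 fold change of the 10 members was -0.02, -0.00 and -0.02 in these comparisons, and that of all transcripts tested was -0.02, 0.00 and -0.01. The comparisons share libraries, HG being in the first and the second and NG in the first and the last, so a member that is high in HG alone is placed higher in the first and lower in the second.

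**Figure D4:**
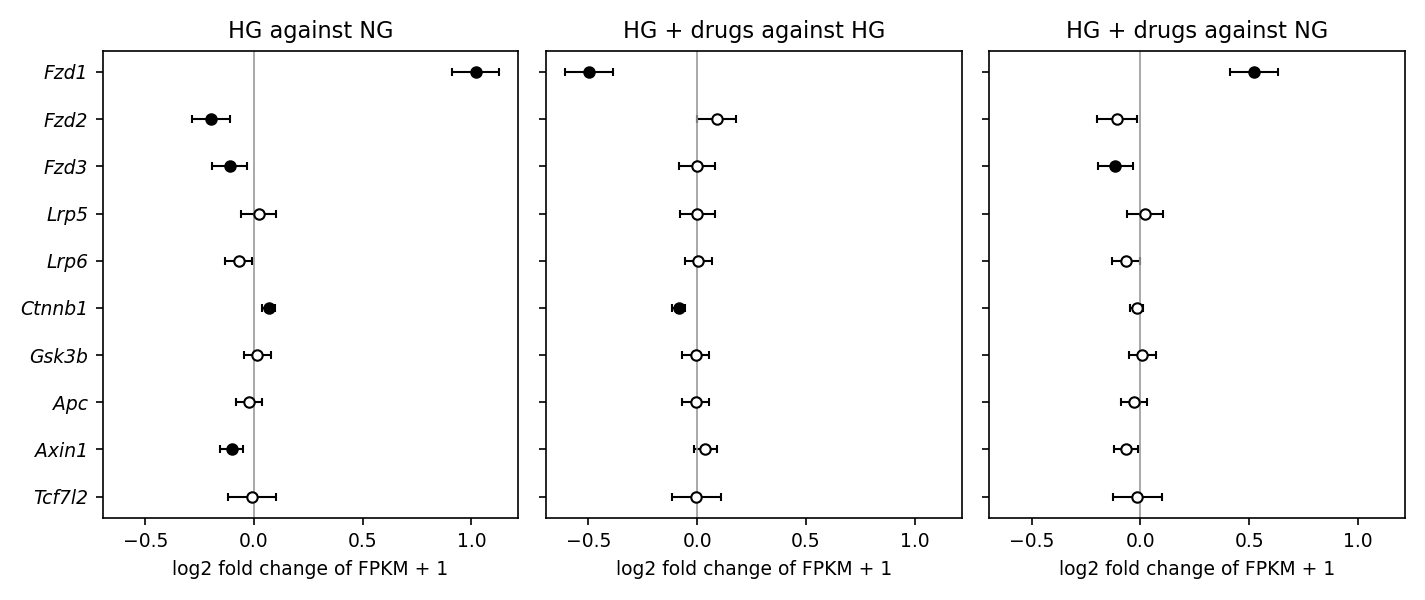
Log2 fold change of FPKM + 1 of each member in the 3 comparisons, with 95% intervals from limma. Filled points passed at an adjusted p under 0.05. Fzd1 is at 1.02, -0.50 and 0.52, and every other member lies within 0.20 of 0 in each comparison.

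The sources name 4 sequencing batches of 15 libraries but not which libraries formed them. Within the 4 sets of 15 consecutive library numbers, the log2 fold change of Fzd1 was 1.00 to 1.04 for HG against NG and -0.58 to -0.35 for HG + drugs against HG. Ctnnb1 changed by 0.03 to 0.09 and by -0.13 to -0.04 in the same sets. Fzd2, Fzd3 and Axin1 were lower with HG in each of the 4 sets.

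After subtraction of group means, the closest transcripts to Fzd1 over the 59 libraries were Sncb, which encodes β-synuclein (Pearson r = 0.57, Spearman rho = 0.42), Ly6h (r = 0.55, rho = 0.51) and Pspc1, which encodes a paraspeckle protein (r = 0.51, rho = 0.36). Sncb averaged 410 FPKM in HG + drugs, 491 FPKM in HG and 343 FPKM in NG. For Axin1 the closest was Phf12 (r = 0.79, rho = 0.81), for Fzd2 it was Klf16 (r = 0.60, rho = 0.58), for Fzd3 it was Ubr4 (r = 0.57, rho = 0.57) and for Ctnnb1 it was LOC689986 (r = 0.49, rho = 0.36). Among the 45 pairs of members, r ran from -0.40 (Lrp5 and Axin1) to 0.54 (Gsk3b and Apc), with a median of 0.13. These values are the highest among many and are a description. Both genes of a pair share each library's depth and scaling.

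Further Wnt genes were taken from 10 lists by role. Of 120 genes, 105 were in the table and 67 transcripts were tested. For HG against NG, 12 were higher and 16 lower (17.9% and 23.9% of those tested), beside the background of 18.2% and 22.0%. For HG + drugs against HG, 3 were higher and 6 lower (4.48% and 8.96%), beside 4.17% and 4.48% of all transcripts. For HG + drugs against NG, 6 were higher and 9 lower (8.96% and 13.4%), beside 12.7% and 14.6%. Their median log2 fold changes were -0.01, 0.01 and -0.01, and none of the 67 transcripts tested changed by more than 0.46. This limit holds on the scale with the pseudocount, which understates changes of low transcripts. Genes of these lists under the filter were not tested and can lie outside it. Among them, Dkk2 averaged 0.518 FPKM in HG and 0.123 FPKM in NG.

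Of 18 Wnt ligands in the table, 4 reached a mean of 1 FPKM. Wnt5a, a ligand known mainly for signaling without β-catenin, averaged 1.55 ± 0.440 FPKM in HG + drugs (SD, n = 19), 1.94 ± 0.429 FPKM in HG and 1.19 ± 0.25 FPKM in NG (SD, n = 20 each). It rose with HG by 0.42 on the log2 scale (SE 0.07, adjusted p = 3.8e-07) and fell with drugs by 0.21 (SE 0.07, adjusted p = 0.036). Wnt4, named here after its values were seen, had by far the highest level, at 166 ± 21.6 FPKM in HG + drugs, 174 ± 21.3 FPKM in HG and 168 ± 28.5 FPKM in NG, and did not pass in any comparison. Porcn, the enzyme that attaches the lipid needed for secretion of Wnt ligands, fell with HG by 0.21 on the log2 scale (SE 0.04, adjusted p = 5.9e-05).

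Among 6 other receptors tested, Ptk7 was higher and Fzd9, Fzd6 and Ryk lower with HG, beside the same background. The log2 fold change of Fzd9 was -0.34 (SE 0.07, adjusted p = 2.1e-05) for HG against NG and -0.26 (SE 0.07, adjusted p = 0.0020) for HG + drugs against NG. Fzd6 averaged 7.68 ± 1.40 FPKM in HG + drugs (SD, n = 19), 6.39 ± 1.27 FPKM in HG and 7.63 ± 1.51 FPKM in NG (SD, n = 20 each). It was lower with HG by -0.22 (SE 0.08, adjusted p = 0.015) and higher with drugs by 0.24 (SE 0.08, adjusted p = 0.042).

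Lgr4, a receptor for R-spondins, which raise the amount of frizzled protein at the cell surface, fell with HG by 0.21 on the log2 scale (SE 0.03, adjusted p = 2.5e-08). Rnf43, the ubiquitin ligase that removes frizzled receptors, rose with HG by 0.19 (SE 0.06, adjusted p = 0.0051) and fell with drugs by 0.23 (SE 0.06, adjusted p = 0.0052), at means of only 1.11 FPKM in HG + drugs, 1.47 FPKM in HG and 1.16 FPKM in NG. Wif1, a secreted protein that binds and blocks Wnt ligands, averaged 61.1 ± 7.93 FPKM in HG + drugs (SD, n = 19), 56.5 ± 5.06 FPKM in HG and 71.9 ± 5.75 FPKM in NG (SD, n = 20 each). Its log2 fold change was -0.34 (SE 0.04, adjusted p = 2.3e-09) for HG against NG and -0.24 (SE 0.04, adjusted p = 2.9e-05) for HG + drugs against NG. Dkk2, an LRP antagonist named after its values were seen, was under the filter and not tested, at 0.348 ± 0.0785 FPKM in HG + drugs, 0.518 ± 0.152 FPKM in HG and 0.123 ± 0.0605 FPKM in NG.

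Of 20 cytoplasmic transcripts tested, 2 were higher and 3 lower with HG (10.0% and 15.0%, beside the background of 18.2% and 22.0%). Axin2, a scaffold like Axin1 and itself a target of β-catenin, averaged 4.14 ± 0.486 FPKM in HG + drugs (SD, n = 19), 3.80 ± 0.478 FPKM in HG and 5.04 ± 0.673 FPKM in NG (SD, n = 20 each). Its log2 fold change was -0.33 (SE 0.05, adjusted p = 4.1e-08) for HG against NG, 0.10 (adjusted p = 0.21) for HG + drugs against HG and -0.23 (SE 0.05, adjusted p = 1.3e-04) for HG + drugs against NG. Tnks2, a tankyrase that marks axins for degradation, rose with HG by 0.14 (SE 0.02, adjusted p = 9.2e-07), and Csnk1e, a casein kinase, by 0.15 (SE 0.03, adjusted p = 7.6e-05). For HG + drugs against HG, the smallest adjusted p from limma among the 20 was 0.061 (Csnk1g2), so none passed, where 8.66% of all transcripts did. A list of 20 is small and was not tested as a set.

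Of 12 known targets of β-catenin in the table, only Axin2, Rnf43 and Myc reached the filter. Axin2 was lower and Rnf43 higher with HG, and Myc, a growth-promoting transcription factor, had a log2 fold change of 0.01 (95% interval -0.15 to 0.18, adjusted p = 0.92). The targets tested thus did not move in a common direction, and 1 of the 3 fell with drugs (Rnf43), where 4.48% of all transcripts did. Lgr5, Nkd1, Notum, Lef1 and Ccnd1 were under 1 FPKM on average, and Sp5 was listed at 0 in every library.

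Of 15 nuclear partners tested, 3 were higher and 2 lower with HG (20.0% and 13.3%, beside the background of 18.2% and 22.0%). Tle5, a short member of the Groucho family, rose with HG by 0.19 (SE 0.02, adjusted p = 1.5e-09) and fell with drugs by 0.09 on the log2 scale (SE 0.02, adjusted p = 0.011), at 392 ± 18.3 FPKM in HG + drugs, 417 ± 25.5 FPKM in HG and 365 ± 16.3 FPKM in NG. Ctbp1, a corepressor, rose with HG by 0.05 (SE 0.02, adjusted p = 0.04) and fell with drugs by 0.09 (SE 0.02, adjusted p = 0.0026).

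The partners of β-catenin in cell junctions changed in both directions. With HG, 4 of 7 were higher and 2 lower, where 18.2% and 22.0% of all transcripts were, and a list of 7 was not tested as a set. Ctnna2, an α-catenin typical of neurons, rose by 0.46 (SE 0.05, adjusted p = 2.8e-11) and Ctnnd2, a δ-catenin, moved by -0.40 (SE 0.04, adjusted p = 6.9e-14). E-cadherin (Cdh1) averaged 47.9 ± 3.07 FPKM in HG + drugs (SD, n = 19), 42.2 ± 2.67 FPKM in HG and 46.8 ± 2.97 FPKM in NG (SD, n = 20 each). It was lower with HG by -0.15 (SE 0.03, adjusted p = 2.8e-05) and higher with drugs by 0.18 (SE 0.03, adjusted p = 1.5e-05). N-cadherin (Cdh2) had the opposite order, at 13.8 ± 1.81 FPKM in HG + drugs, 16.2 ± 1.83 FPKM in HG and 13.9 ± 1.40 FPKM in NG, and was higher with HG by 0.21 (SE 0.05, adjusted p = 4.0e-04) and lower with drugs by -0.22 (SE 0.05, adjusted p = 0.0018). Of 7 genes of the planar polarity branch, which signals through frizzled receptors without β-catenin, Prickle1, Celsr2 and Daam1 were lower with HG, by -0.14, -0.13 and -0.14, and 0 were higher, beside the same background.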

How the data were processed

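RNA of INS-1E cells was sequenced after a TruSeq RNA v2 preparation. According to the paper and the processing notes, the authors checked reads with FastQC 1.0.0, trimmed adapters, aligned to build rn5 with TopHat and Bowtie and estimated the deposited FPKM per RefSeq transcript with Cufflinks, which divides shared reads between transcripts. FPKM depend on each library's total. The replicates are described as independent experiments. Replicate 16 of HG + drugs was not among the libraries available. The paper states that a sample of insufficient quality was left out, without naming it. Columns marked LG were matched to NG by their numbers.

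Log2(FPKM + 1) of the 10660 transcripts averaging 1 FPKM or more was fitted in limma 3.58.1 (R 4.3.3, trend and robust options) with 3 groups in 1 model and a threshold of 0.05. The procedure was also run on simulated data, drawn without effects shared by libraries of equal number, so such effects were not tested there. Ratios were compared by permutation tests (numpy 2.4.6, scipy 1.17.1). Depth was derived from low FPKM, of which 86.7% were within 0.1 of a whole read. Members and lists were chosen with earlier results of these data known. Named were all members, up to 3 passing transcripts per list and comparison, by adjusted p, and the closest transcripts of members past the threshold with HG. Alternatives were another pseudocount, other filters, scaling by median ratios or quantiles, a replicate block, sets of 15 libraries, fewer libraries and sums per symbol. Promoters were read from RefSeq (GRCr8), and 9 of 10 member accessions had the same symbol there, all but Tcf7l2.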

Additional observations from a re-analysis of the deposited data

How the results depend on the processing

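Of 321 recomputed values of single members, 307 kept their direction and call. Fzd1 kept both in every setting that tested it, and Ctnnb1 in all. With a minimum of 5 FPKM, 7 members remained tested, without Fzd1, Fzd3 and Tcf7l2. The counts became 1 higher and 2 lower for HG against NG. They became 0 higher and 1 lower for HG + drugs against HG, and 0 higher and 0 lower for HG + drugs against NG. The count of members lower in HG + drugs against NG was 0 after quantile normalization, where 1469 of all transcripts tested were lower. It was 2 with sets of 15 libraries as a term. The share of all transcripts that passed is not given for the minimum of 5 FPKM or for the sets. The counts of members in those settings therefore have no background beside them. Directions that reversed were all of values that did not pass. They were Tcf7l2 for HG against NG (0.011, quantile normalization) and, for HG + drugs against HG, Lrp5 (-0.0034 with median-ratio scaling, -0.0068 with quantile normalization), Lrp6 (-0.0019 with quantile normalization, -0.0021 without number 13), Tcf7l2 (0.0013 with only numbers present in all 3 groups), Fzd3 (0.0015 without number 13) and the Lrp5 to Lrp6 ratio (0.0093 without number 13). The cause was not tested.

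The labels do not say that equal replicate numbers share an experiment, so the main tests did not use the numbers as pairs. Counts of replicate numbers that were higher or lower did compare libraries of equal number. The paper shows secretion and apoptosis as change from NG, with a line for each experiment. In the data, libraries of equal number deviated from their group means together on average, though not in every pair. Over 58 pairs of equal number, the mean correlation of deviations from group means was 0.139, against -0.0073 for other numbers, but it ranged from -0.091 to 0.366, with 38 pairs above 0.1, and the closest library of another group had the same number for 27 of 59. With a replicate block, 4 members were lower in HG + drugs against NG (Fzd2, Lrp6 and Axin1 in addition to Fzd3), Lrp6 passed for HG against NG (adjusted p = 0.0057), and the Lrp5 to Lrp6 ratio passed for HG against NG at the same difference of 0.093 (adjusted p = 0.0073, sign-flip permutation test). Of the wider Wnt genes, 19 were higher and 20 lower with HG, and 7 were higher and 10 lower with drugs. The share of all transcripts that passed with this block is not given. The counts of members and wider genes with the block therefore have no background beside them. Depth limits Tcf7l2 most, at medians of 30 to 34 reads.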
